A study of Mus musculus with 33 samples.

Results

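The extracellular matrix genes examined here were the collagens, the laminins, the ADAMTS proteases with their protease-free ADAMTS-like relatives, and 7 further matrix proteins (Npnt, Fn1, Nid1, Nid2, Hspg2, Vcan and Sparc). They were chosen by symbol from the deposited count table, which gave 79 genes of 14664. The rule reads symbols and no values, but it was drawn up with earlier results of these data known, so the change of Npnt, which it names singly, is no independent support. One of them, Col4a3bp, matches only by its name: it encodes a ceramide transfer protein and no matrix protein. Expression was measured by RNA-seq in ganglionic eminences, the swellings of the ventral forebrain that produce striatal neurons and GABAergic interneurons, of 4 wild-type and 4 Dlx1/2-/- mouse embryos of the CD1 strain at stage e13.5. The knockout embryos lack both Dlx1 and Dlx2, homeodomain transcription factors of GABAergic precursors. Both genotypes had 2 male and 2 female embryos, and the wild-type embryos are the controls of every comparison below. The 8 RNA libraries belong to a series of 33 samples, and the ChIP-seq samples were not analysed here.

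The matrix of the embryonic brain has 2 main compartments. Basement membranes, sheets of type IV collagen and laminin networks held together by nidogens and perlecan, surround blood vessels and cover the pial surface, where radial glia anchor their end feet. The tissue between cells holds little fibrillar collagen and is rich in hyaluronan and in lecticans such as versican, which several ADAMTS proteases cleave.

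Libraries held between 14.4 M and 117 M counts, of which the 79 genes took between 0.140% and 0.183%. All 79 passed the filter on low counts and none had fewer than 100 reads in total. Levels are given as CPM, counts relative to the TMM-scaled total of the library, as mean ± SD over 4 libraries, and changes as log2 of knockout over wild type with the standard error of the edgeR fit. CPM are not divided by transcript length, so levels are compared between libraries and not between genes. The targeted Dlx1 ranged over 119 to 129 CPM in wild type and only 21.5 to 26.1 CPM in knockout, and 10 of 14 marker genes of the ganglionic eminence fell. No label says how the RNA of a library relates to 1 embryo beyond the numbers above, so p-values measure the spread between these libraries. In whole tissue, fewer cells of a type and less RNA per cell cannot be told apart.

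Among the 79 matrix genes 3 passed the test: Npnt rose, and Adamts5 and Col4a4 fell. These are 1 gene higher, where the background over all 14510 genes tested is 0.586%, and 2 lower, where it is 0.896%. In either direction 3 of 79 is 3.80%, against 1.48% of all genes tested (edgeR, adjusted p under 0.05). The changes of 68 of the 79 lay within 0.5 of no change on the log2 scale. Over all genes tested 13699 of 14510 did, a larger share. The median size of the change, sign aside, was 0.22 for the matrix genes against 0.08 over all genes tested. The median change was 0.08 against −0.00 over all genes tested, and 49 of 79 (62.0%) had a positive sign against 49.0% of all genes tested. At an unadjusted p under 0.05 there were 11 higher and 6 lower members, 17 of 79 (21.5%) against 7.69% of all genes tested. The authors' deposited table lists 4 of the 79 at an adjusted p under 0.05, the 3 genes above and Adamts15, where it lists 2.24% of its 14664 genes.

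**Figure D1:**
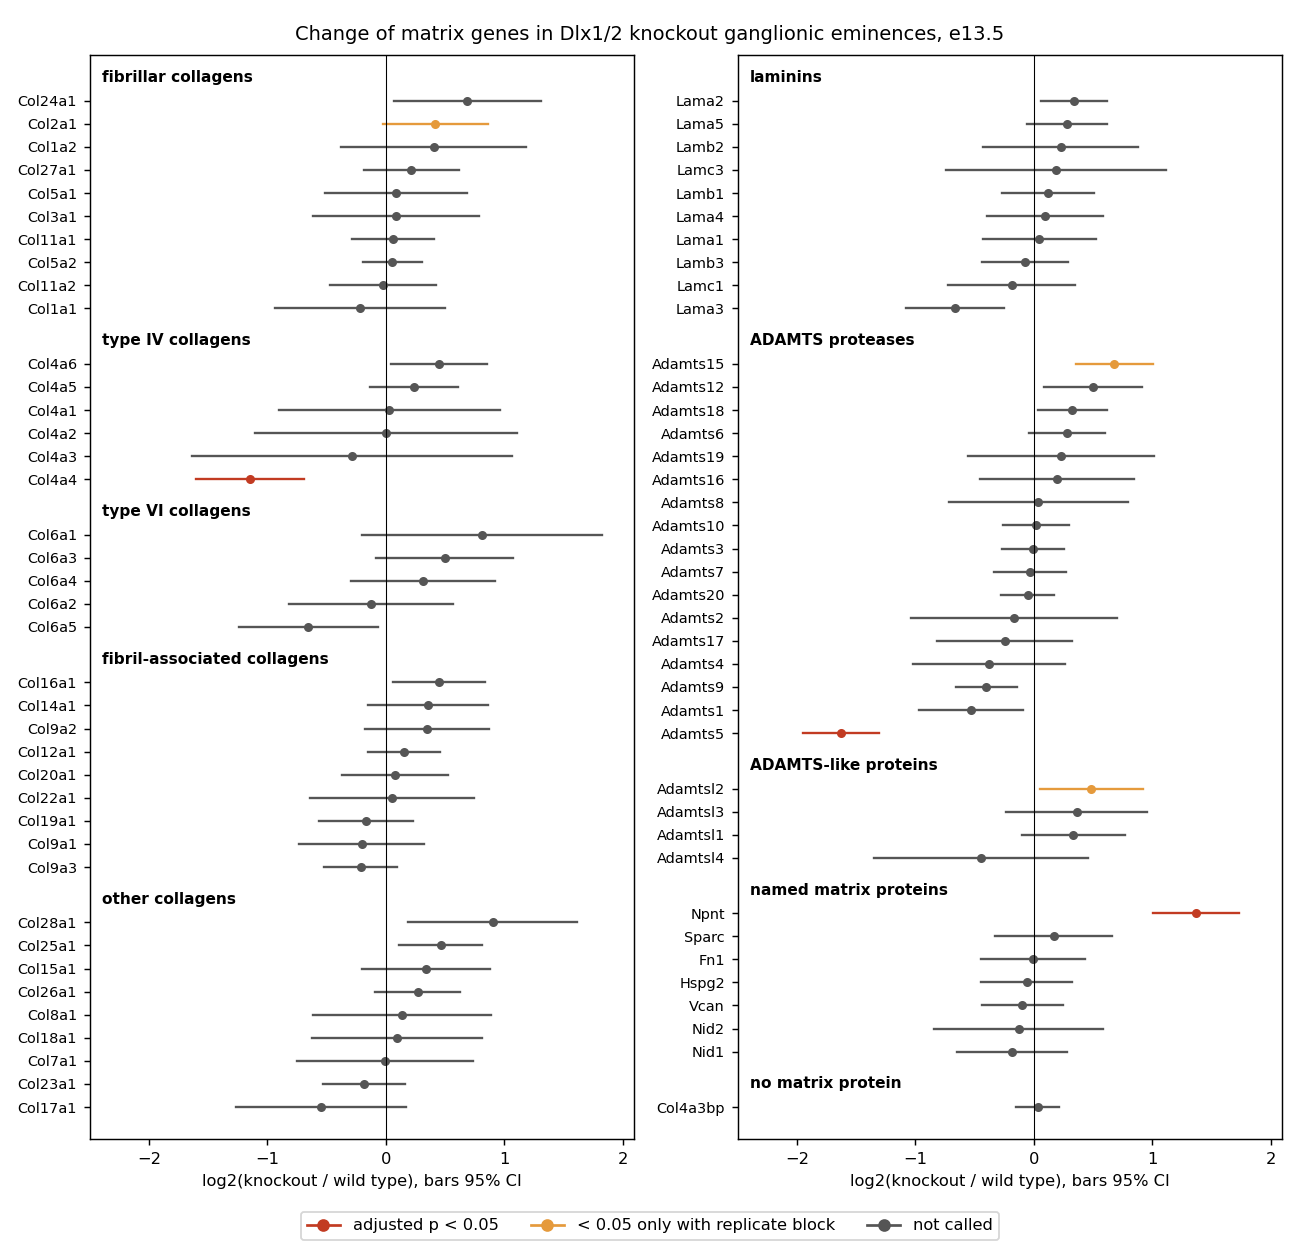
Log2 change of knockout over wild type for the matrix genes (points, with bars for the 95% confidence interval of the edgeR fit), grouped by family. Red marks the 3 genes called at an adjusted p under 0.05 (Npnt at 1.37, Col4a4 at −1.14 and Adamts5 at −1.63), orange the 3 called by edgeR only with the replicate number as a block (Adamts15, Adamtsl2 and Col2a1, of which Adamts15 was also called by DESeq2), and grey the others, most of which lie near 0.

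Adamts5 encodes an aggrecanase, a secreted protease that cuts lecticans, versican among them. Its level in the wild-type libraries was 16.0, 18.4, 14.7 and 15.2 CPM, and in the knockout libraries 6.38, 4.93, 5.21 and 4.16 CPM. Every knockout library lay below every wild-type library, by far more than the spread within either genotype. The means were 16.1 ± 1.64 and 5.17 ± 0.923 CPM (n = 4 each), a fall of 3.09-fold (log2 −1.63, SE 0.14, 95% confidence interval −1.95 to −1.31, edgeR adjusted p = 0.00024). The call held without any 1 of the 8 libraries, with adjusted p from 0.00032 to 0.0017, and the authors' deposited table lists −1.64 for the same gene.

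Npnt encodes nephronectin, a basement membrane protein that binds the integrin made of the chains Itga8 and Itgb1. It was at 2.84, 2.77, 3.18 and 2.58 CPM in wild type against 9.54, 6.56, 6.68 and 6.43 CPM in knockout. The groups did not overlap, and 1 knockout library stood above the other 3. Means were 2.84 ± 0.251 and 7.30 ± 1.49 CPM, a rise of 2.58-fold (log2 1.37, SE 0.16, edgeR adjusted p = 0.0019), and the call held without any 1 library (adjusted p from 0.0027 to 0.011). The receptor chains did not pass the test. Itga8 was at 3.06 ± 0.561 CPM in wild type against 3.71 ± 0.438 CPM in knockout (log2 0.29, SE 0.17), and Itgb1 at 167 ± 17.1 and 164 ± 24.4 CPM (log2 −0.02, SE 0.12).

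Col4a4 encodes the alpha 4 chain of type IV collagen, which joins the alpha 3 and alpha 5 chains in the network of the kidney filter. It had 2.07, 3.21, 2.38 and 2.58 CPM in wild type against 1.26, 1.25, 0.802 and 1.12 CPM in knockout. The groups were apart, but on few reads, 419 in the wild-type libraries together and 154 in the knockout libraries. Means were 2.56 ± 0.485 and 1.11 ± 0.214 CPM, a fall of 2.21-fold (log2 −1.14, SE 0.20, edgeR adjusted p = 0.0212). The call was lost without any 1 of 6 libraries, with adjusted p up to 0.0725, and was kept only without wild-type replicate 1 or knockout replicate 3. In replicates 1 and 2 alone its adjusted p was 0.149 and in replicates 3 and 4 alone 0.106, with log2 changes of −1.01 and −1.32.

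**Figure D2:**
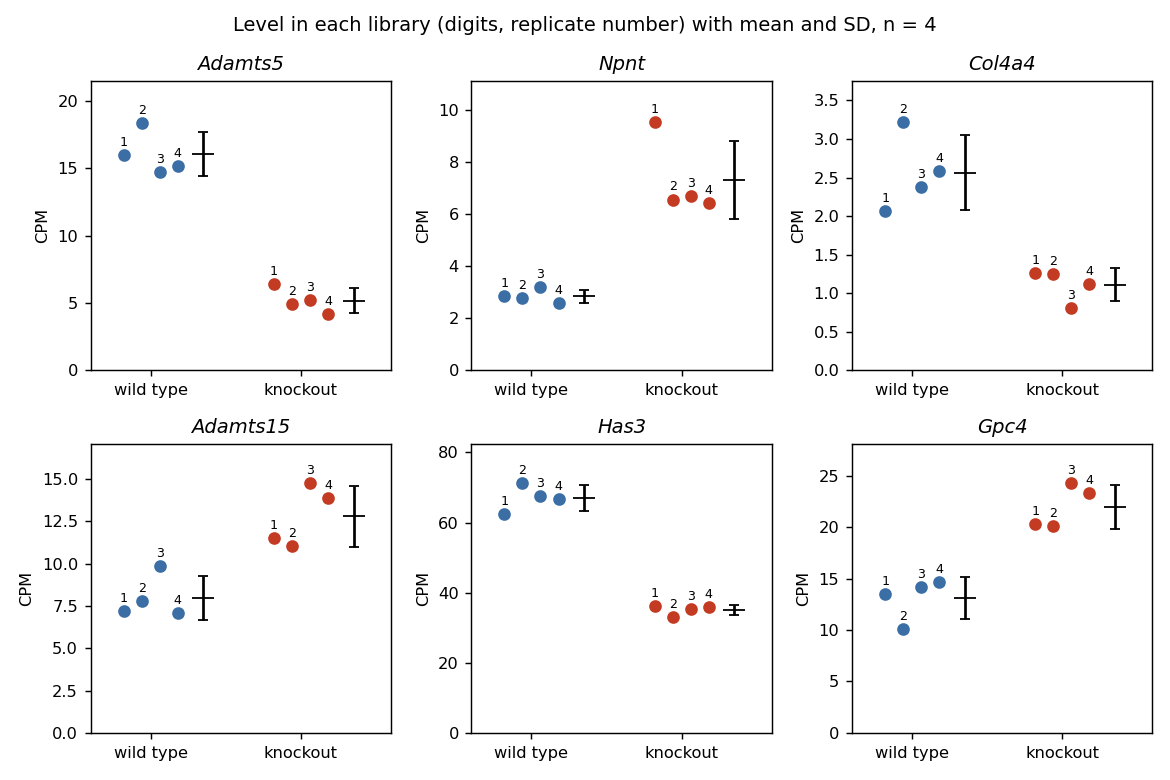
Level in CPM of 4 matrix genes (Adamts5, Npnt, Col4a4 and Adamts15) and of the related genes Has3 and Gpc4 in each library, with digits for the replicate number and bars for the mean and SD of the 4 libraries of a genotype. In each panel the wild-type and the knockout libraries do not overlap, and for Npnt knockout replicate 1 at 9.54 CPM lies above the other 3.

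The DLX proteins are homeodomain factors, a class that commonly recognises a TAAT core. The bases before the start sites of 2 of the 3 called genes are shown with that core in view. The promoters used, from RefSeq (GRCm38.p6), are 57 for 52 of the 79 genes. Npnt and Col4a4 are among them and Adamts5 is not. The 250 bases upstream of each start are given 5′ to 3′ in the direction of transcription, for Npnt at chr3:132950292-132950541 on the minus strand (the farther upstream of 2 listed starts) and for Col4a4 at chr1:82586850-82587099 on the minus strand. Capitals mark matches on either strand to the homeodomain core (TAAT, read as ATTA on the other strand) or the GC box (GGGCGG, read as CCGCCC).
Npnt: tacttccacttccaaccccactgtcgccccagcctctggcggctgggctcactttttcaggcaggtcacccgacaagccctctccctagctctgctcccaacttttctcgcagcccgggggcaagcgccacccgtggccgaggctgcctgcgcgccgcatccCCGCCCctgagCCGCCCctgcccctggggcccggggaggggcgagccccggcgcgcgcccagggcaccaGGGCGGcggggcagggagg
Col4a4: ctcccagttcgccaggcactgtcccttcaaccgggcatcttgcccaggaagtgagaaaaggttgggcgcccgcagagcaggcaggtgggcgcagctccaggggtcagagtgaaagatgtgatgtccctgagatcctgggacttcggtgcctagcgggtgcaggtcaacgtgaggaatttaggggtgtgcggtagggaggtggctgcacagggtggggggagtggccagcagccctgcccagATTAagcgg

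The Npnt stretch holds 3 GC boxes and no TAAT, in 74% G and C. The Col4a4 stretch holds 1 TAAT core and no GC box, in 62.8% G and C, where the median over all promoters was 52.4%. Over all 32851 promoters of this length 54.9% held a TAAT on either strand, against 31.6% of the 57 promoters of the matrix genes. The longer homeodomain site TAATTA, which contains a TAAT, was in 4.84% and 1.75%. The GC box was in 32.7% of all promoters and in 61.4% of those of the matrix genes, CCAAT in 33.8% and 29.8%, and TATAAA in 12.4% and 8.77%. These are matches of letters in a window and no measure of binding.

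Neighbouring genes on the chromosome gave a further view of the called genes. In the gene order of RefSeq GRCm38, 10 pairs of the 79 genes were adjacent. Adamts1, another aggrecanase and the neighbour of Adamts5, had a log2 change of −0.53 (SE 0.20, edgeR adjusted p = 0.419), at 8.55 ± 2.32 CPM in wild type against 5.94 ± 0.744 CPM in knockout with overlapping libraries. With the replicate number as a block Adamts1 had −0.49 (SE 0.12, edgeR adjusted p = 0.0615). Within each replicate number its knockout library was the lower. Col4a3 is transcribed away from Col4a4 from a promoter region that both share, and had −0.29 (SE 0.61) at 0.391 ± 0.319 and 0.336 ± 0.203 CPM, a level too low to show whether it moved with Col4a4. Adamts8, the neighbour of Adamts15, had 0.04 (SE 0.34).

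With the replicate number as a block, which removes differences shared by libraries of the same number, 4 members were higher (background 2.22%) and 2 lower (background 2.16%), together 6 of 79 (7.59%) against 4.38% of all genes tested. The 3 genes gained were Adamts15, Adamtsl2 and Col2a1, and all 3 genes above remained. Adamts15, a further protease of the lectican-cleaving branch, was at 7.18, 7.76, 9.85 and 7.08 CPM in wild type against 11.53, 11.02, 14.8 and 13.9 CPM in knockout. The groups did not overlap, with a log2 change of 0.68 (SE 0.15, edgeR adjusted p = 0.0583, with the block 0.0041). Removing wild-type replicate 3, the highest of its group, brought its adjusted p to 0.0371, and without any other library it stayed above the threshold, up to 0.192. It was called by DESeq2 (adjusted p = 0.0018) and in the authors' deposited table (adjusted p = 0.0077).

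Adamtsl2, a protein that binds fibrillin microfibrils and carries no protease domain, was at 5.45, 5.98, 8.49 and 7.54 CPM in wild type against 8.16, 7.90, 12.9 and 9.66 CPM in knockout. Within each replicate number the knockout library was the higher, while the groups as a whole overlapped (log2 0.49, SE 0.20, edgeR adjusted p = 0.516, with the block 0.0264). Col2a1, the cartilage collagen that is also made in early neuroepithelium, was at 17.5, 23.5, 26.7 and 27.0 CPM in wild type against 20.8, 32.7, 39.7 and 33.5 CPM in knockout (log2 0.42, SE 0.20, edgeR adjusted p = 0.722, with the block 0.0135). It too was higher in the knockout library of every number, with overlapping groups. What libraries of the same number share is not stated. Over all genes tested wild-type replicate 1 correlated more with knockout replicate 2 (0.603) than with knockout replicate 1 (0.155). Wild-type replicate 2 likewise correlated more with knockout replicate 1 (0.394) than with knockout replicate 2 (0.293). In that last-named cross pair Col2a1 was lower in knockout replicate 1 (20.8 CPM) than in wild-type replicate 2 (23.5 CPM), so its order depends on the pairing. Neither gene was called by DESeq2, which called 5 of the 79, 2 higher and 3 lower, and 3.21% of all genes to which it gave an adjusted p.

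The other ADAMTS proteases did not pass the edgeR test without the block. Of 17 tested, 1 fell (Adamts5) and 0 rose (5.88%, against 1.48% of all genes tested). The median change was −0.01, with changes in both directions (8 positive). With the block 1 was higher and 1 lower (11.8%, against 4.38%). DESeq2 also called 1 higher and 1 lower, where it called 3.21% of all genes to which it gave an adjusted p. At an unadjusted p under 0.05 there were 3 higher and 3 lower, Adamts5 among them (35.3%, against 7.69% of all genes tested). Without overlap between the genotypes were 4 of 17 (23.5%, against 5.97%). Adamts7, which cuts a cartilage matrix protein, was at 49.4 ± 5.54 CPM in wild type against 48.4 ± 8.46 CPM in knockout. Adamts10, a microfibril-associated member, was at 58.5 ± 8.44 and 59.4 ± 6.32 CPM, Adamts3, a procollagen propeptidase, at 34.5 ± 4.63 and 34.4 ± 3.24 CPM, and Adamts20 at 13.97 ± 1.01 and 13.53 ± 1.10 CPM. Adamts18 was at 15.9 ± 2.63 and 19.9 ± 1.99 CPM (log2 0.32, SE 0.13, edgeR adjusted p = 0.515), with overlapping libraries. The 95% intervals for Adamts3 (−0.27 to 0.26), Adamts7 (−0.34 to 0.28), Adamts10 (−0.26 to 0.30) and Adamts20 (−0.28 to 0.17) leave room for changes of about that size. Of the 4 ADAMTS-like genes none was called by edgeR or DESeq2, and 1 was higher at an unadjusted p under 0.05 (25%). Beside Adamtsl2, Adamtsl1 (0.33, SE 0.19), Adamtsl3 (0.36, SE 0.27) and Adamtsl4 (−0.44, SE 0.41) had wide errors.

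Versican, the large lectican that ADAMTS proteases of this branch cut, did not pass the test. Vcan was at 546, 609, 403 and 409 CPM in wild type against 520, 496, 414 and 408 CPM in knockout. Libraries 1 and 2 were high and 3 and 4 low in both genotypes, and the genotypes overlapped (log2 −0.10, SE 0.15, 95% interval −0.44 to 0.24, and with the block −0.08, SE 0.07). Fn1, which encodes fibronectin, was at 33.2 ± 7.42 and 33.0 ± 7.76 CPM (log2 −0.01). Sparc, a collagen-binding glycoprotein, was at 58.3 ± 18.2 and 65.5 ± 12.1 CPM (log2 0.17, SE 0.22).

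Of 22 basement membrane genes (type IV collagens, laminin chains, Nid1, Nid2, Hspg2, Col15a1 and Col18a1), 1 fell (Col4a4) and 0 rose, and the median change was 0.07. Npnt, described above, also encodes a basement membrane protein and rose, but it was left out of this list. The 1 call is 4.55%, against 1.48% of all genes tested. At an unadjusted p under 0.05 there were 4 of 22 (18.2%), against 7.69%. Col4a1 and Col4a2, the chains of the common type IV network and head-to-head neighbours, differed strongly between libraries of the same genotype. Col4a1 was at 62.7, 57.0, 144 and 152 CPM in wild type against 69.6, 52.4, 148 and 156 CPM in knockout. Replicates 3 and 4 were 2.47-fold above replicates 1 and 2 in wild type and 2.49-fold in knockout, and the genotypes overlapped entirely. Col4a2 showed the same order, with 33.3, 31.4, 94.3 and 99.8 CPM in wild type against 36.4, 29.0, 93.7 and 101 CPM in knockout. Because of that spread the genotype change of Col4a1, 0.03, had a 95% interval from −0.90 to 0.97, and with the replicate block from −0.10 to 0.15 around the same value. For Col4a2 the intervals were −1.11 to 1.11 and, with the block, −0.14 to 0.15. The other common partners were Col4a5 (log2 0.24, SE 0.17) and Col4a6 (0.45, SE 0.18, edgeR adjusted p = 0.53, with the block 0.0829).

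None of the 11 laminin chains was called by edgeR, with or without the block, while DESeq2 called 1 lower. At an unadjusted p under 0.05 there were 1 higher and 1 lower (18.2%, against 7.69% of all genes tested). Laminins are trimers of an alpha, a beta and a gamma chain. Among alpha chains, Lama1, the early chain of neural basement membranes, was at 24.0 ± 5.12 and 24.9 ± 7.09 CPM (log2 0.05, SE 0.21), Lama4, the vessel chain, at 30.6 ± 8.05 and 32.8 ± 8.74 CPM (0.10, SE 0.22), and Lama5 at 8.48 ± 1.25 and 10.3 ± 1.61 CPM (0.28, SE 0.15). Lama2, the chain of muscle and glial basement membranes, was at 3.39, 3.46, 4.03 and 3.29 CPM in wild type against 4.48, 4.29, 4.81 and 4.35 CPM in knockout. These groups did not overlap, yet the change was small (0.34, SE 0.12, edgeR adjusted p = 0.416).

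Lama3, an alpha chain best known from epithelia, was at 4.63, 3.96, 3.48 and 3.04 CPM in wild type against 2.28, 2.09, 2.21 and 3.08 CPM in knockout. It was lower in 3 of 4 knockout libraries, and knockout replicate 4 reached the lowest wild-type library. Its log2 change was −0.67 (SE 0.19, edgeR adjusted p = 0.166, with the block 0.111), and DESeq2 gave an adjusted p of 0.0483. In replicates 1 and 2 alone it passed (log2 −0.99, adjusted p = 0.0324), and in replicates 3 and 4 alone the change was −0.27 (adjusted p = 0.911).

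Among beta and gamma chains, Lamb1 was at 34.3 ± 6.11 CPM in wild type against 37.3 ± 8.18 CPM in knockout, and Lamc1 at 22.7 ± 4.84 and 20.1 ± 7.10 CPM. These chains of the most common laminins had log2 changes of 0.12 (SE 0.18) and −0.18 (SE 0.24). Lamb2 (0.23, SE 0.29), Lamb3 (−0.07, SE 0.16) and Lamc3 (0.19, SE 0.42) were likewise not called. The linker genes had small changes too: Nid1 and Nid2, the nidogens, had −0.19 (SE 0.21) and −0.13 (SE 0.32), and Hspg2, perlecan, −0.06 (SE 0.17). Col15a1 (0.34, SE 0.24) and Col18a1 (0.09, SE 0.32), collagens of the vessel basement membrane zone, completed the group.

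**Figure D3:**
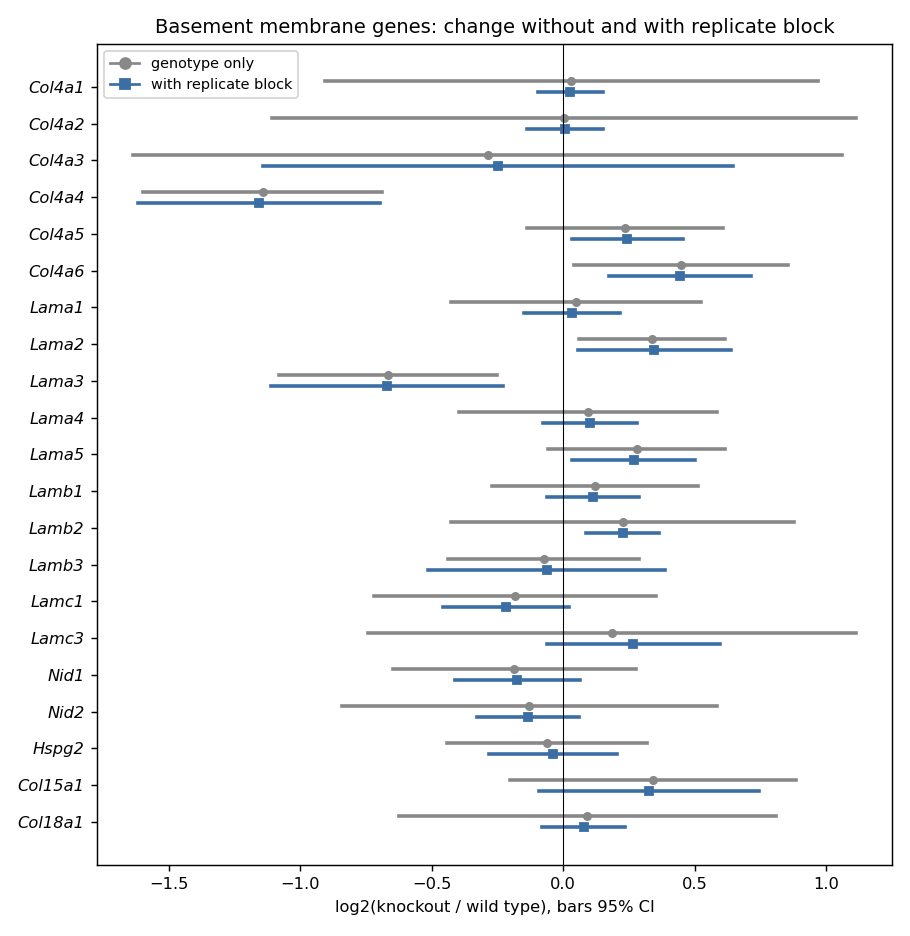
Log2 change of knockout over wild type for basement membrane genes, with 95% confidence intervals from the fit on genotype alone (grey circles) and with the replicate number as a block (blue squares). The estimates hardly move, while the interval of Col4a1 shrinks from −0.90 to 0.97 to −0.10 to 0.15, and Col4a4 stays apart from 0 in both.

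The order of the libraries seen for Col4a1 was shared by many of the genes. In 24 of 79 (30.4%) the 4 libraries numbered 3 and 4, of both genotypes, all lay above the 4 numbered 1 and 2, where 19.0% of all genes tested did. The opposite order held for 1 of 79 (1.27%), Vcan, against 20.0% of all genes tested. Among the basement membrane genes it was 13 of 22 (59.1%) and 0 of 22. Besides the type IV pair, the ratio of replicates 3 and 4 to replicates 1 and 2 was 2.66 in wild type and 2.12 in knockout for Lamc3, 1.83 and 1.87 for Lamb2, 1.87 and 2.02 for Nid2, and 1.90 and 2.04 for Col18a1. Outside the basement membrane list Col22a1 (2.02 and 1.82), Fn1 (1.47 and 1.51) and Sparc (1.74 and 1.26) had the same order. The called genes did not: Adamts5 had 0.869 and 0.828, Npnt 1.03 and 0.814, and Col4a4 0.939 and 0.764.

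Most endothelial markers moved with this order, and markers of other cells did so in part. In wild type the summed level of 19 endothelial markers was 1.35-fold higher in replicates 3 and 4 than in 1 and 2. In knockout it was 1.31-fold higher. Of the 19, 12 (63.2%, against 19.0% of all genes tested) had all 4 of these libraries above the others, and Egfl7 had the opposite order. The 11 pericyte markers had 1.23-fold and 1.20-fold, though their sum in knockout replicate 1 (136 CPM) exceeded that in wild-type replicate 3 (128 CPM). Of these 11, 4 (36.4%) followed the order of Col4a1. The 11 markers of meningeal fibroblasts and mesenchyme had 0.857-fold and 0.839-fold, and 0 of the 10 tested followed it. The radial glia sum had 1.10-fold and 0.988-fold, with 4 of 14 markers (28.6%) in that order, and the neuron sum 0.977-fold and 0.928-fold, with 2 of 8 in that order and 4 of 8 in the opposite one. What sets replicates 1 and 2 apart from 3 and 4 is not given in the labels, and the part of any cell type in this order was not tested. Between the genotypes these sums overlapped, with 276 to 382 CPM in wild type and 260 to 363 CPM in knockout for the endothelial list, 108 to 148 and 106 to 149 CPM for the pericyte list, and 52.2 to 66.5 and 37.6 to 57.9 CPM for the mesenchyme list. No gene of the 3 lists was called by edgeR, with or without the block, or by DESeq2, and 1 mesenchyme marker was lower at an unadjusted p under 0.05.

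**Figure D4:**
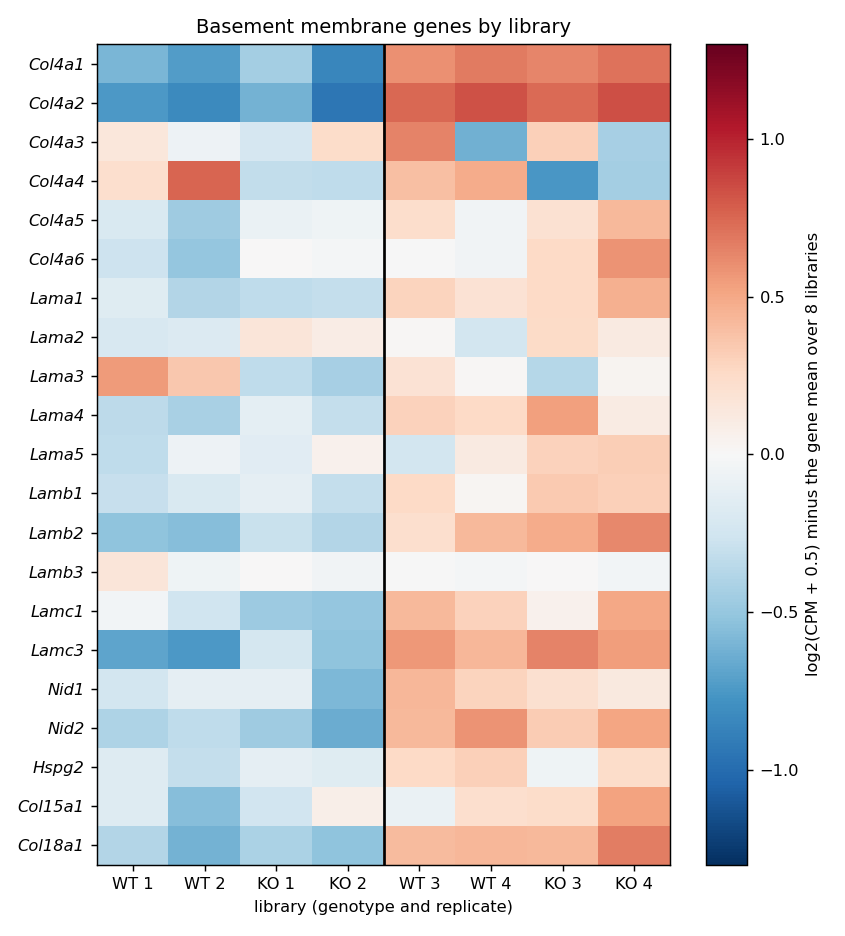
Level of basement membrane genes in each library, as log2(CPM + 0.5) minus the mean of the gene over the 8 libraries, with replicates 1 and 2 of both genotypes left of the line and replicates 3 and 4 right of it. Col4a1 and Col4a2 are low in all 4 libraries on the left and high in all 4 on the right, and Col4a4 is instead low in the 4 knockout libraries.

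Among the fibrillar collagens 2 of 10 (20%), Col5a1 and Col11a1, had the order of libraries described for Col4a1, where 19.0% of all genes tested did. None of 10 was called by edgeR or DESeq2. At an unadjusted p under 0.05 there was 1 higher (10%, against 7.69% of all genes tested), and Col2a1 was called with the block (10%, against 4.38%). Col1a2, a chain of type I collagen, was at 7.21, 2.92, 5.94 and 3.67 CPM in wild type against 3.89, 8.17, 4.61 and 9.93 CPM in knockout. Col3a1, the type III chain of vessel walls and connective tissue, was at 13.4, 7.32, 13.8 and 11.46 CPM in wild type against 7.61, 13.1, 7.95 and 20.2 CPM in knockout. For both genes knockout replicates 2 and 4 were high, and the genotypes overlapped (log2 0.40, SE 0.35, and 0.08, SE 0.31). The sum of the 11 mesenchyme markers in the knockout libraries was 49.4, 57.9, 37.6 and 52.4 CPM, so replicates 2 and 4 were the highest of the knockout but not above the wild-type range of 52.2 to 66.5 CPM. The part of mesenchymal cells in these values was not tested. Col1a1, the other type I chain, was at 2.65 ± 0.909 and 2.28 ± 0.912 CPM (−0.22, SE 0.32). The remaining fibrillar genes had smaller errors: Col5a2 0.06 (SE 0.11), Col11a1 0.06 (SE 0.15), Col11a2 −0.02 (SE 0.20) and Col5a1 0.09 (SE 0.27).

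Of the 5 type VI collagens, 9 fibril-associated collagens and 9 other collagens none was called by edgeR, with or without the block. At an unadjusted p under 0.05 there were 3 higher and 1 lower. By family these were 20%, 11.1% and 22.2%, against 7.69% of all genes tested. DESeq2 called none of them either. Col22a1, a collagen of tissue junctions, was at 45.5 ± 18.2 CPM in wild type against 47.3 ± 16.0 CPM in knockout (log2 0.05, SE 0.31). Type VI collagen, a beaded filament of connective tissue, ranged from −0.65 for Col6a5 (SE 0.26) to 0.81 for Col6a1 (SE 0.46), both named as the ends of the range after their values were seen, on few reads (257 and 116 for Col6a5, 101 and 110 for Col6a1, in wild type and knockout). Without overlap between the genotypes were 10 of the 79 genes, 7 higher (background 2.88%) and 3 lower (background 3.09%), together 12.7% against 5.97% of all genes tested. Beside those described above these were Col24a1 (0.69, SE 0.28), Col25a1 (0.46, SE 0.16), Col28a1 (0.91, SE 0.32) and Adamts12 (0.50, SE 0.19) higher and Adamts9 (−0.40, SE 0.12) lower, all uncalled and named after their values were seen. Few reads lay behind Col24a1 (152 in wild type and 155 in knockout), Col28a1 (124 and 157) and Adamts12 (188 and 187). Col4a3bp was at 55.0 ± 1.54 and 56.2 ± 2.70 CPM (0.03, SE 0.08).

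Genes that work with the matrix proteins were examined in 5 lists. Of 142 tested, 3 passed (2.11%, against 1.48% of all genes tested), 1 higher and 2 lower. With the block 14 passed (9.86%, against 4.38%), 8 higher and 6 lower. All 3 calls fell in the list of brain proteoglycans and hyaluronan, with 26 tested. Has3, a hyaluronan synthase, was at 62.4, 71.4, 67.6 and 66.7 CPM in wild type against 36.3, 33.0, 35.2 and 36.0 CPM in knockout. The libraries were tightly grouped within each genotype and far apart between them, a fall of 1.91-fold (log2 −0.93, SE 0.09, edgeR adjusted p = 0.00032), and the call held without any 1 library (adjusted p from 0.0011 to 0.0024).

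Gpc4, a glypican that carries heparan sulphate at the cell surface, rose from 13.49, 10.09, 14.2 and 14.7 CPM to 20.3, 20.1, 24.3 and 23.3 CPM (log2 0.74, SE 0.13, edgeR adjusted p = 0.0207). All knockout libraries were higher, but the call was lost without wild-type replicate 1 or 3 or knockout replicate 3 or 4, with adjusted p up to 0.0725. Spock3, a testican proteoglycan, fell from 35.3, 28.5, 28.2 and 25.0 CPM to 20.1, 21.6, 18.7 and 16.7 CPM (log2 −0.60, SE 0.13, edgeR adjusted p = 0.0486). Its call lay at the threshold and was kept only without wild-type replicate 4. Leaving out any other 1 library gave adjusted p up to 0.137, and upper-quartile scaling gave 0.0528.

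With the block 6 of the 26 genes of this list passed (23.1%, against 4.38% of all genes tested), 4 higher and 2 lower. Bcan, Tnc and Ptprz1 were the higher genes gained. At an unadjusted p under 0.05 there were 3 higher and 2 lower (19.2%, against 7.69%). Without overlap between the genotypes were 4 of the 26 (15.4%, against 5.97%). Bcan encodes brevican, a brain lectican, and was at 5.38, 5.54, 7.94 and 6.92 CPM in wild type against 11.9, 9.76, 26.0 and 13.8 CPM in knockout. The groups did not overlap, and knockout replicate 3 was far above the rest (log2 1.24, SE 0.29, edgeR adjusted p = 0.0777, with the block 0.0011). Ptprz1, a receptor phosphatase with a chondroitin sulphate chain that is abundant in radial glia, was at 214 ± 38.1 and 297 ± 56.6 CPM (0.47, SE 0.16, edgeR adjusted p = 0.32, with the block 0.0021). Tnc, the glycoprotein tenascin-C, was at 46.7 ± 12.6 and 60.9 ± 22.9 CPM (0.38, SE 0.27, edgeR adjusted p = 1.0, with the block 0.042).

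In the list of other matrix glycoproteins 0 of 41 tested were called by edgeR. With the block 1 was higher and 4 lower (12.2%, against 4.38% of all genes tested). At an unadjusted p under 0.05 there were 3 higher and 4 lower (17.1%, against 7.69%). DESeq2 called 1 higher and 4 lower, where it called 3.21% of all genes to which it gave an adjusted p. The 4 lower genes were Thbs1, thrombospondin 1, from 25.9 ± 2.81 to 15.7 ± 4.03 CPM (log2 −0.72, SE 0.17), Fbn2, a fibrillin, from 22.3 ± 2.29 to 12.7 ± 3.76 CPM (−0.81, SE 0.20), Matn2, a matrilin, from 6.45 ± 1.15 to 3.46 ± 1.16 CPM (−0.93, SE 0.23), and Smoc1, a calcium-binding relative of Sparc, from 12.6 ± 2.404 to 7.70 ± 1.15 CPM (−0.72, SE 0.16). Each had no overlap between the genotypes, as had 6 of the 41 in all (14.6%, against 5.97% of all genes tested). For these 4 lower genes edgeR adjusted p ran from 0.0688 to 0.106 without the block and from 0.0016 to 0.0233 with it. The higher gene was Ntn4, a laminin-related netrin of basement membranes, at 29.2 ± 0.953 and 39.4 ± 4.33 CPM (0.43, SE 0.10, edgeR adjusted p = 0.07, with the block 0.0124). All 5 were called by DESeq2 (adjusted p from 0.0018 to 0.0061), and none by edgeR without the block.

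Matrix receptors and proteases gave 0 called genes of 26 and 25 tested, and 1 called gene each by DESeq2. At an unadjusted p under 0.05 there were 5 and 2 higher and 0 lower (19.2% and 8%, against 7.69% of all genes tested). With the block the shares called were 7.69% of the receptors and 4% of the proteases, against 4.38% of all genes tested. With the block Itga7, a laminin receptor chain (2.17 ± 0.354 to 3.69 ± 0.606 CPM, log2 0.75, SE 0.17, adjusted p = 0.0193), and Ddr1, a collagen receptor kinase (166 ± 24.3 to 213 ± 34.5 CPM, 0.36, SE 0.14, adjusted p = 0.007), were higher. Mmp15, a membrane metalloproteinase, was higher with it as well (21.5 ± 1.76 to 28.3 ± 2.68 CPM, 0.39, SE 0.10, adjusted p = 0.0092). The 24 collagen processing enzymes gave 0 calls with edgeR, with the block and with DESeq2, and 1 gene at an unadjusted p under 0.05 (4.17%).

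The summed levels of further marker lists are given beside these values. The summed level of 14 radial glia markers was 2459 to 2880 CPM in wild type and 3096 to 3701 CPM in knockout without overlap, with 1 of 14 called (Ednrb, 7.14% against 1.48% of all genes tested) and 5 with the block (35.7% against 4.38%), and Ptprz1 is on that list too. The sum of 8 neuron markers was 5100 to 5585 CPM in wild type and 4673 to 5124 CPM in knockout, with overlap. Of these 8, none was called by edgeR or DESeq2 or had an unadjusted p under 0.05, and 1 was lower with the block. The choroid plexus list was at 17.5 to 18.5 and 26.5 to 37.1 CPM, of which Otx2, also a gene of other forebrain cells, took 10.1 ± 0.712 and 23.2 ± 3.77 CPM, while the defining marker Ttr was at 0 to 1.94 CPM in all libraries. The part of a shift between progenitors and neurons in the changes of Npnt, Adamts5, Col4a4 and the other called genes was not tested.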

How the data were processed

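RNA was measured in 8 libraries, 4 wild-type and 4 knockout, grouped by the labels. The authors deposited raw read counts per gene symbol in 1 table, whole numbers without normalization per the file headers, beside the log2 fold change, log2 mean level, test score, p-value and adjusted p-value of their own comparison. STAR 2.4.2a, bcl2fastq and the mouse build mm9 are named per the submitters' processing notes. The counter, annotation and strand setting (not given in the sources used here) decide how reads of overlapping genes were shared. The labels name polyA RNA as the molecule and a kit for ribosome-depleted total RNA, and which applies is not stated. Total counts of 14.4 M to 117 M make low genes most precise in the deepest library.

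Counts of all 14664 symbols were fitted with edgeR 4.0.16 in R 4.3.3 (TMM scaling, filterByExpr with a minimum count of 10, quasi-likelihood test, genotype as the factor), and p-values were adjusted by Benjamini-Hochberg over the 14510 genes tested, with a threshold of 0.05. The procedure was tested on simulated data. Alternatives were the replicate number as a block, DESeq2 1.42.0, RLE and upper-quartile scaling, no filter, a minimum count of 30, replicates 1 and 2 or 3 and 4 alone, and leaving out each library. The replicate numbers come from the titles and no label says what they share. Over 14510 genes the deviations of same-numbered libraries from their group means correlated at 0.155, 0.293, 0.374 and 0.482 across genes, so the numbers were taken to pair libraries, although wild-type replicate 1 with knockout replicate 2 (0.603) and wild-type replicate 2 with knockout replicate 1 (0.394) correlated more than same-numbered libraries 1 and 2 did. Xist was at 367 to 397 CPM in wild-type replicates 1 and 4 and knockout replicates 2 and 4 and at 1.23 to 3.54 CPM in the others, so numbers 1 and 2 each join libraries of unlike Xist level. No pair of replicates agreed within sampling noise (chi-square per degree of freedom at least 15.04).

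The members and lists were chosen with earlier results of these data known. A member that is counted with its group is not reported here by itself. Named genes were those called with or without the block, all basement membrane and classical fibrillar members, Fn1, Npnt, Sparc and Vcan, the 5 of highest mean CPM among collagens, ADAMTS and ADAMTS-like genes, and for the related lists the called genes with Itga8 and Itgb1. Neighbours of called genes were named by gene order, and members outside these rules are named after their values were seen. Sequences and gene order were taken from RefSeq tables (GRCm38.p6), where 78 members matched by symbol and 1 by synonym.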

Additional observations from a re-analysis of the deposited data

Results flagged for a closer look

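Of 94 groups of 4 libraries examined for the named genes, 2 (2.13%) had a library set apart from the other 3 by Dixon's ratio, and chance alone gives about 1 in 20. Npnt was at 9.54 CPM in knockout replicate 1 and at 6.43 to 6.68 CPM in the other knockout libraries, a gap of 0.917 of the group's range. All 4 values lie above the wild-type libraries, and the call for Npnt held without that library. Adamts7 was at 57.7 CPM in wild-type replicate 4 and at 45.8 to 47.5 CPM in the other wild-type libraries, a gap of 0.864 of the range. Its knockout libraries spanned 40.7 to 57.7 CPM.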

How the results depend on the processing

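Of the matrix genes 1 was higher and 2 lower. The replicate block gave 4 and 2, DESeq2 2 and 3, replicates 1 and 2 alone 2 and 2, and replicates 3 and 4 alone 1 and 1. Leaving out 1 library gave 1 to 2 higher and 1 to 2 lower. The related genes gave 3 calls, against 14 with the replicate block, 11 with DESeq2, 10 in replicates 1 and 2 alone and 1 to 3 without 1 library. Over all genes 85 were higher and 130 lower, against 322 and 313 with the replicate block, 230 and 241 with DESeq2, and 178 and 202 in replicates 1 and 2 alone. Leaving out 1 library gave 50 to 66 higher and 92 to 121 lower, the fewest higher genes being found when replicate 1 of either genotype was left out. The related genes dropped to 1 without wild-type replicate 1 or 3. The causes of these differences were not tested. RLE scaling, no filter and a minimum count of 30 changed no call of a named gene, and upper-quartile scaling changed that of Spock3 only. Of the values of single named genes under all alternatives, 934 kept their direction and side of the threshold or stayed within 1 SD, 40 gained a call, 21 lost one, 9 moved by more than the spread and none changed sign while called. The median change over all genes was −0.0027, and 0.0090 under upper-quartile and −0.0010 under RLE scaling. Depth limits the low genes most: Col4a3 had 74 reads in wild type and 43 in knockout.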
